A study of Mus musculus with 6 samples.

Results

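The genes of cholesterol and fatty acid synthesis, of their control by sterol regulatory element-binding proteins (SREBPs) and of sterol traffic were followed in CD4 T cells of the inflamed mouse colon. The set held 37 genes, chosen by symbol from the count table, of 55335 in all. Neither the set nor the lists used beside it cover the whole pathway, and its other genes were not analysed here. They were placed by role as 8 genes of the mevalonate arm, 9 of the sterol arm, 5 of SREBP control, 10 of fatty acid synthesis and 5 of sterol handling. The 3 GFP-positive libraries (TCF7-positive, called stem-like in the labels) and the 3 GFP-negative libraries (TCF7-negative, called effector) differed in the sort gate. Both gates shared the donor, the recipient and the disease: naive splenic CD4 T cells of TcfGFP mice had been given to Rag1 KO mice, which have no T or B cells of their own, colitis had developed, and the cells were sorted from the colon lamina propria. The reporter marks activity of the Tcf7 locus and not the TCF1 protein itself. Neither the age of the mice nor whether replicates were separate or pooled mice is given in the labels, so the p-values reflect no more than variation among these libraries, which may be technical.

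Cells build cholesterol from acetyl-CoA through mevalonate to squalene, then close squalene to lanosterol and trim it to cholesterol. When membrane sterol is low, the escort protein SCAP carries the SREBPs from the endoplasmic reticulum to the Golgi, where they are cut and released to switch on these genes, and when sterol is plentiful INSIG proteins hold SCAP back. T cells raise this program and fatty acid synthesis when they are activated and divide, and surplus cholesterol is exported or esterified.

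Libraries held 4309500 to 7462076 counts. GFP-positive replicate 3 stood apart. Myeloid markers held 0.687% of its counts against 0.0136% to 0.0191% in the other 5 libraries, and antigen-presenting cell markers 0.657% against 0.0186% to 0.0442%. Lyz2 stood at 4217 CPM (counts divided by the sum over tested genes after TMM scaling) in that library and from 65.8 to 100.4 CPM elsewhere, while the macrophage gene Adgre1 had 21.8 CPM there and 0 elsewhere. Epithelial markers held 0.0243% of its counts against 0.00230% to 0.00492% in the other 5. The joint list of stromal and endothelial markers held 0.0325% against at most 0.00106%. In that library the stromal genes Col1a1, Col1a2, Col3a1 and Dcn had 114, 85, 678 and 1546 counts. The endothelial genes Cdh5, Kdr and Vwf had 0 there. Of the markers that define the labelled cells, Cd3e lay between 621.9 and 795.5 CPM and Cd4 between 510.0 and 695 CPM in all 6 libraries. All 7 CD4 T cell markers together held 0.454% of counts in GFP-positive replicate 3, against 0.583% to 0.638% in the other 5. In CPM that library was the lowest for Cd3d, Cd3g, Cd2, Cd5 and Lck, but not for Cd3e or Cd4. Proliferation genes such as Mki67 held 0.0501%, 0.0679% and 0.0537% of counts in GFP-positive replicates 1 to 3, against 0.0646%, 0.120% and 0.146% in GFP-negative replicates 1 to 3. The log2 fold change (GFP-positive over GFP-negative) was negative for all 9 of those genes, and its median was -1.09. Stress genes of tissue dissociation held 1.42%, 1.15% and 1.06% of counts in the GFP-positive gate and 1.21%, 0.989% and 0.794% in the GFP-negative gate.

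The question was whether T cells with and without Tcf7 reporter activity differed in this program. No gene of the set passed the test. The median log2 fold change of the tested genes of the set was -0.12, where that of all tested genes was 0.02. Elovl6, a fatty acid elongase, was the gene with the highest log2 fold change and the smallest p, at 32.0 ± 3.01 CPM in GFP-positive libraries, against 18.8 ± 1.95 CPM in the GFP-negative gate (SD, n = 3 each). Dhcr7, the reductase of the last step to cholesterol, had the next smallest p and lay on the other side, at 31.7 ± 3.07 CPM in GFP-positive libraries, against 48.6 ± 6.0 CPM in the GFP-negative gate (SD, n = 3 each).

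The test was edgeR's quasi-likelihood test over 11074 genes that passed its expression filter, with adjustment by Benjamini-Hochberg over all of them and a threshold of 0.05. Over all genes 12 passed, or 0.108% of those tested (0.0361% higher and 0.0722% lower in the GFP-positive gate). Of the set, 33 passed the filter and 4 did not (Fdps, Scd1, Fads2 and Abca1), and 0 of the 33 were called in either direction. The smallest adjusted p was 0.333, for Elovl6. At an unadjusted p below 0.05 there were 2 genes, Elovl6 and Dhcr7, or 6.06% of the 33, where all tested genes reached 10.3%. Elovl6 was the 1 on the higher side, where all tested genes reached 4.31%, and Dhcr7 the 1 on the lower side, where they reached 5.97%. Libraries did not overlap between the gates for 6 genes, or 18.2%, where the figure for all tested genes was 16%. Of these, 2 were higher (Elovl6 and Nsdhl; 7.25% of all tested genes) and 4 lower (Sqle, Dhcr7, Scap and Elovl1; 8.8%). The log2 fold change was positive for 9 of the 33, against 51.6% of all tested genes, and negative for 24 (72.7%), against 48.4%.

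Without GFP-positive replicate 3, the count of calls over all genes was 42 of 11361, or 0.37% (0.114% higher and 0.255% lower), and the set again had 0, with a smallest adjusted p of 0.247. Its unadjusted p was then below 0.05 for 4 genes (12.1%, against 12.2% of all tested genes), of which Elovl6 was higher (4.65% of all tested genes) and Dhcr7, Ebp and Acaca lower (7.56%). Libraries did not overlap for 8 genes (24.2%, against 29.3% of all tested genes), with 2 higher (13.7% of all tested genes) and 6 lower (15.6%). Of the 33, 13 were positive (51.2% of all tested genes) and 20 negative (60.6%, against 48.8%).

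**Figure D1:**
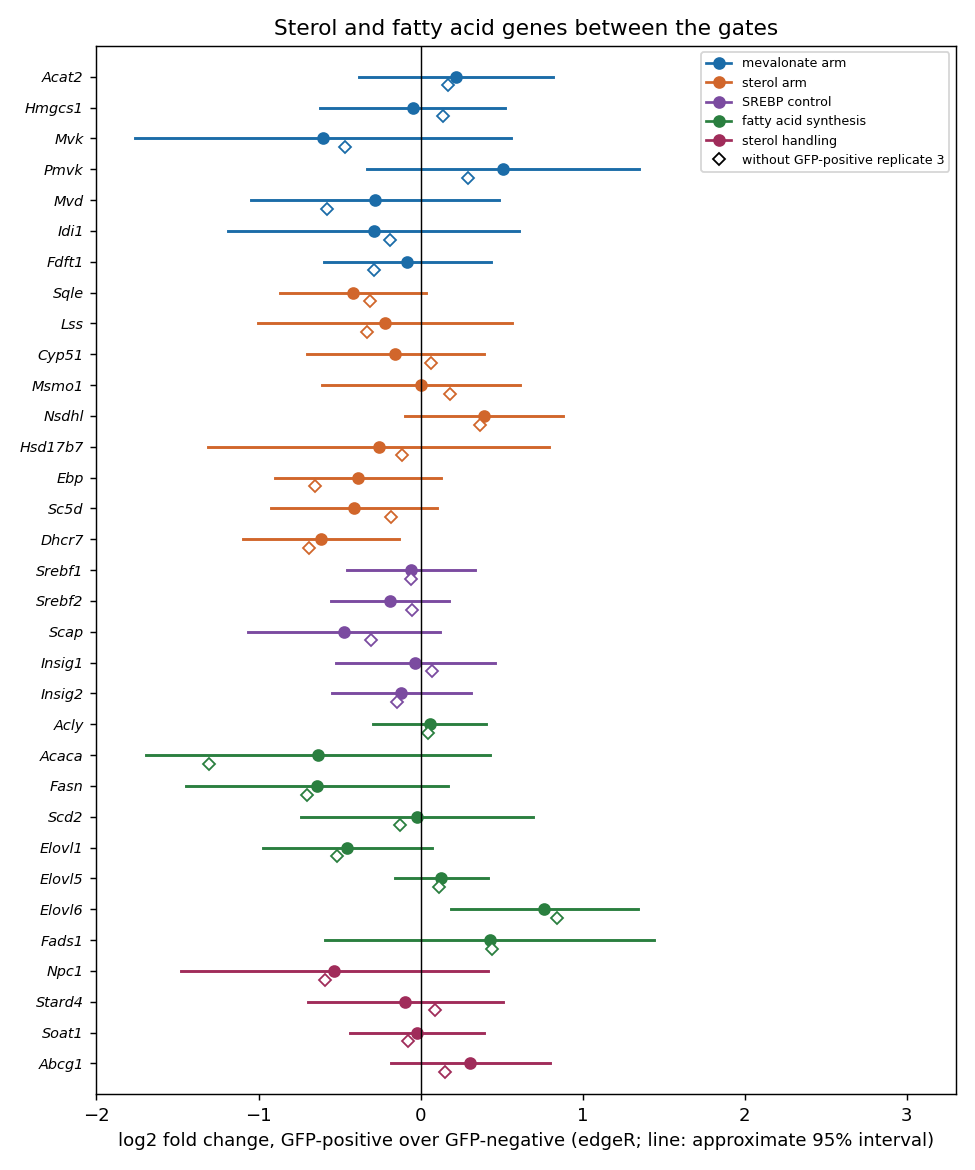
Log2 fold change of the 33 tested genes, GFP-positive over GFP-negative (edgeR; x axis), by gene in role order (y axis). Filled points and lines give all 6 libraries with an approximate 95% interval, and open diamonds the value without GFP-positive replicate 3. The intervals of Elovl6 and Dhcr7 alone exclude 0, and that of Elovl6 lies on the positive side.

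A p above the threshold does not show that the gates were alike, so approximate 95% intervals of the log2 fold change were computed from the same fit. For 20 of the 33 genes the interval lay wholly within a 2-fold change in either direction. These were 3 of 7 tested genes of the mevalonate arm, 6 of 9 of the sterol arm, 4 of 5 of SREBP control, 4 of 8 of fatty acid synthesis and 3 of 4 of sterol handling. For the other 13, larger differences than 2-fold lay inside the interval at this depth and spread.

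Levels between genes were compared in TPM, which the authors had scaled by gene length. Elovl5, which elongates polyunsaturated fatty acids, was the highest, with 160, 138 and 138 TPM in GFP-positive replicates 1 to 3, against 135, 148 and 135 TPM in GFP-negative replicates 1 to 3. Its libraries overlapped, and its log2 fold change was 0.13 ± 0.13 (SE), with an interval from -0.16 to 0.42. Acly, the enzyme that makes cytosolic acetyl-CoA from citrate and so feeds both pathways, was the second highest. It had 111, 112 and 103 TPM in GFP-positive libraries, against 87.2, 111 and 130.1 TPM in GFP-negative libraries. The GFP-positive libraries of Acly lay inside the range of the GFP-negative ones. Ebp, a sterol isomerase, was the third, with 66.5, 45.9 and 80.1 TPM in GFP-positive libraries, against 88.9, 86.1 and 91.5 TPM in GFP-negative libraries. All 3 GFP-positive libraries of Ebp were lower in TPM, while in CPM replicate 3 at 72.1 exceeded GFP-negative replicates 1 and 2 at 71.1 and 66.4, so that the groups overlapped on that scale.

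**Figure D2:**
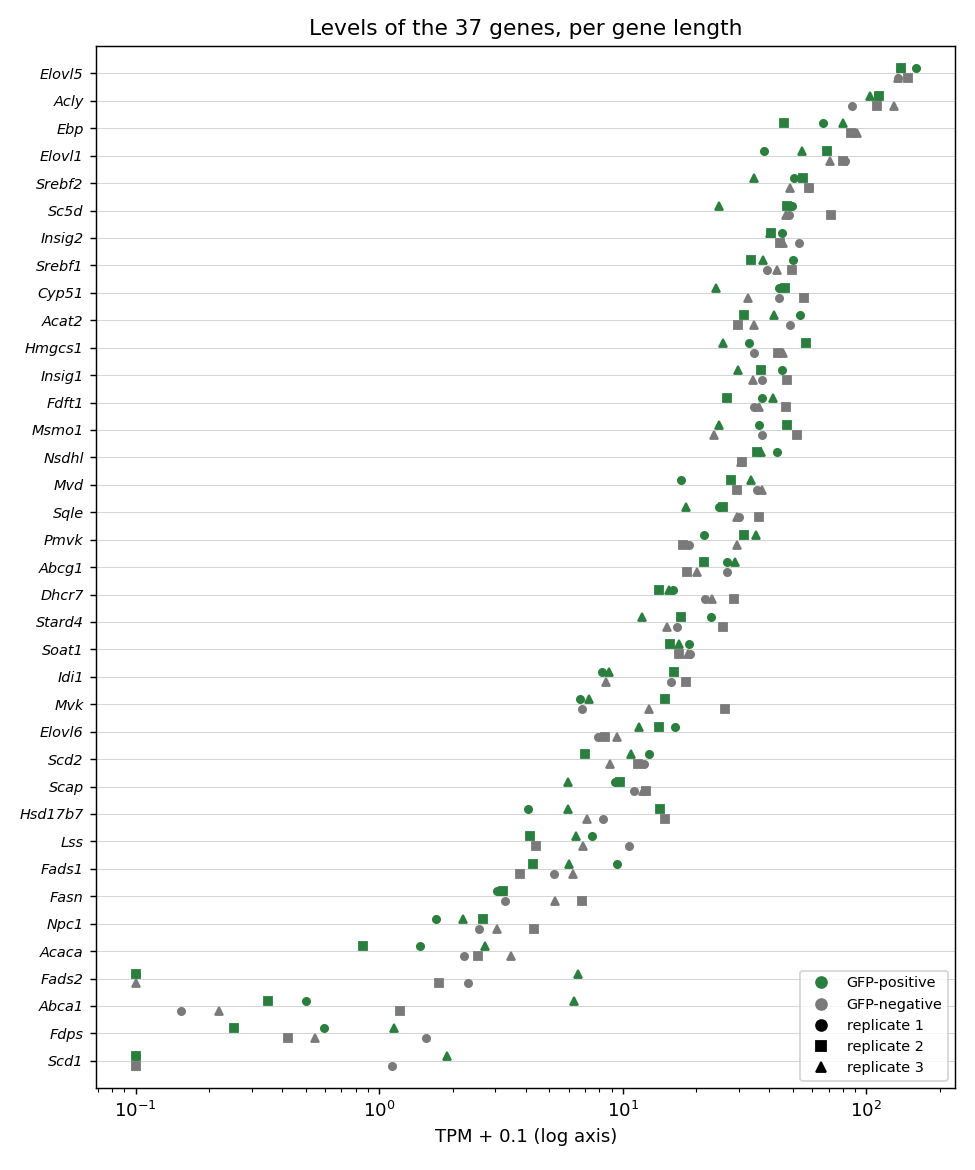
TPM + 0.1 of all 37 genes on a log axis (x), ordered by mean TPM (y), with GFP-positive libraries in green, GFP-negative libraries in grey and a marker shape per replicate number. Elovl5 and Acly lead in both gates, and Abca1, Fdps and Scd1 are the lowest, with Abca1 highest in GFP-positive replicate 3.

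In the mevalonate arm the 7 tested genes had a median log2 fold change of -0.08, and 2 were positive. Hmgcs1, which makes HMG-CoA and is a well-known SREBP target, had 50.2, 92.0 and 46.2 CPM in GFP-positive libraries, against 55.0, 66.4 and 73.0 CPM in GFP-negative libraries. GFP-positive replicate 2 was the highest of all 6 and the other GFP-positive libraries were the lowest, so the gates overlapped. Its log2 fold change was -0.05 ± 0.26 (SE), with an interval from -0.62 to 0.52. Acat2, which joins acetyl-CoA units, had 38.3 ± 8.91 CPM in GFP-positive cells against 32.9 ± 9.01 CPM in GFP-negative cells (SD, n = 3 each). The kinase genes Mvk and Pmvk lay on opposite sides, Mvk at 9.12 ± 4.32 CPM in GFP-positive cells against 13.8 ± 8.78 CPM in GFP-negative cells, and Pmvk at 18.3 ± 5.65 CPM in GFP-positive cells against 12.9 ± 4.08 CPM in GFP-negative cells (SD, n = 3 each). The decarboxylase Mvd, the isomerase Idi1 and the squalene synthase Fdft1 had log2 fold changes of -0.28, -0.29 and -0.08.

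Fdps, farnesyl diphosphate synthase, had only 4, 1 and 12 counts in GFP-positive libraries, against 11, 2 and 3 counts in GFP-negative libraries, and did not pass the filter. Its neighbours in the arm, Idi1 and Fdft1, had 463 and 1701 counts over the 6 libraries. In the GENCODE M21 annotation the exons of Fdps share 1124 bases with another protein-coding model on the same strand, Gm43738, which had 0 counts. Its longest transcript also matched 4 processed pseudogenes at 95% identity or more over at least 200 bases, which held 5 counts in all. Reads that match several of these cannot be assigned to one, so the level of Fdps is uncertain; whether this lowers its count was not tested. By the same criterion Acat2 matched Acat3 and part of Tcp1, Idi1 matched 2 pseudogenes, and Acaca, Elovl6 and Fdft1 matched 1 each (Gm5182 over 6118 bases, Gm11295 over 805 bases and Gm6781 over 1249 bases), so the counts of these genes are also less certain. The pseudogenes of Acaca, Elovl6 and Fdft1 held 1, 0 and 2 counts. Tcp1, which matched Acat2 over 445 bases, held 7032 counts over the 6 libraries, against 1144 of Acat2, and Acat3 held 25. The library kit does not mark strand, and 774 exon bases of Fdft1 are shared with Ctsb, a lysosomal protease gene on the other strand with 15139 counts over the 6 libraries.

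Hmgcs1 is shown with its promoter. Of the 28 genes with a promoter window, it alone held the core letters of a sterol regulatory element, the site SREBPs bind. RefSeq promoters (GRCm38.p6) run from 250 bases before to 50 bases after a start. They were found for 28 of the 37 genes, at 37 starts. The other 9 (Fdps, Fdft1, Sqle, Scd1, Scd2, Fads1, Npc1, Stard4 and Abcg1) were not searched. Bases 250 to 51 before the start are printed 5′ to 3′ for Hmgcs1, for Insig1 as an SREBP-controlled regulator with an E-box, and for Elovl6 and Dhcr7 as the genes with the smallest p. Capitals mark TCACNCCAC, the E-box CACGTG or the NF-Y site CCAAT on either strand (CCAAT on the other strand reads ATTGG), and none of these overlap one another in the 4 stretches.
Hmgcs1, chr13:119690101-119690300, plus strand: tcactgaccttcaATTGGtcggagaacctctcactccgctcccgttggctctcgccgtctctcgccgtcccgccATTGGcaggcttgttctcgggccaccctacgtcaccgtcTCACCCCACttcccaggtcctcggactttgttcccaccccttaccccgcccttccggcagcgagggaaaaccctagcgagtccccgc
Insig1, chr5:28071162-28071361, plus strand: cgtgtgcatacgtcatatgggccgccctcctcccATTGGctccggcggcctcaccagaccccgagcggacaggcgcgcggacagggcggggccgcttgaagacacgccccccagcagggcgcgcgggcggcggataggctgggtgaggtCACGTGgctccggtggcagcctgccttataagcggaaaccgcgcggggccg
Elovl6, chr3:129532136-129532335, plus strand: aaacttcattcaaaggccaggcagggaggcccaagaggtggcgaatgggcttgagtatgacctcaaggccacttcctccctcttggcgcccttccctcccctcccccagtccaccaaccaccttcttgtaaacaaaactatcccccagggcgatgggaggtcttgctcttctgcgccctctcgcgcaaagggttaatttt
Dhcr7, chr7:143822917-143823116, plus strand: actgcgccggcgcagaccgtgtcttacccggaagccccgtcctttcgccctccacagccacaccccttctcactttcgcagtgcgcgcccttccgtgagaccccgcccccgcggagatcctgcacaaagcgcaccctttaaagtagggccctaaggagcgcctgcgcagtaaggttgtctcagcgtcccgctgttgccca

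In Hmgcs1 the sterol element letters begin 137 bases before the start, written at -137, and in Insig1 the E-box begins at -101 and the CCAAT letters at -216. The stretch shown for Elovl6 and that for Dhcr7, the first of its 3 starts, held none of the searched letters. Counted per gene over whole windows, TCACNCCAC was in 3.57% of the matched genes of the set and 1.44% of all genes with a promoter, CACGTG in 25% and 8.09%, and CCAAT in 78.6% and 41.1%. A match is a run of letters and not evidence of binding, and these shares were not tested.

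In the sterol arm, which runs from squalene to cholesterol, 7 of 9 genes were negative and the median log2 fold change was -0.26 (-0.18 without GFP-positive replicate 3), and none was called. The median of all tested genes was 0.02. The summed share of proliferation genes, given above, was lower in all GFP-positive libraries than in GFP-negative replicates 2 and 3. The gates overlapped, as GFP-positive replicate 2 (0.0679%) exceeded GFP-negative replicate 1 (0.0646%). The part of cell division in the sterol arm values was not tested. Dhcr7 (chromosome 7, 143823145 to 143848410, plus strand) had 31.0, 29.0 and 35.0 CPM in GFP-positive libraries, against 43.6, 55.3 and 46.9 CPM in GFP-negative libraries. Every GFP-positive library was below every GFP-negative one. Its log2 fold change was -0.62 ± 0.22 (SE) with an interval from -1.10 to -0.13, and its adjusted p in edgeR's test was 0.358. Without GFP-positive replicate 3 the log2 fold change was -0.69 ± 0.25 (edgeR adjusted p = 0.271).

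Sqle, squalene epoxidase and a rate-limiting enzyme, had 45.9, 50.6 and 39.0 CPM in GFP-positive libraries, against 57.4, 66.6 and 56.8 CPM in GFP-negative libraries. These did not overlap either, but at a log2 fold change of -0.42 ± 0.21 (SE) edgeR's adjusted p was 0.53. Nsdhl, which removes methyl groups of lanosterol, lay the other way, with 40.9, 35.9 and 40.9 CPM in GFP-positive libraries, against 30.2, 29.3 and 30.3 CPM in GFP-negative libraries. The GFP-negative libraries of Nsdhl lay within 1 CPM of each other and below all GFP-positive ones. Its log2 fold change was 0.39 ± 0.23 (SE; edgeR adjusted p = 0.621).

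For Ebp the log2 fold change was -0.39 ± 0.24 (SE), and edgeR gave it an adjusted p of 0.639. It was -0.65 without GFP-positive replicate 3, where the unadjusted p was 0.0136 and edgeR's adjusted p 0.247. Sc5d, a sterol desaturase, had 69.5 ± 19.6 CPM in GFP-positive libraries, against 92.3 ± 20.7 CPM in the GFP-negative gate (SD, n = 3 each), and its groups overlapped. Cyp51, which removes a methyl group of lanosterol, Msmo1, a sterol monooxygenase, the lanosterol synthase Lss and the reductase Hsd17b7 had log2 fold changes of -0.16, 0.00, -0.22 and -0.26. Cyp51 shares 166 exon bases with Akap9 on the other strand.

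**Figure D3:**
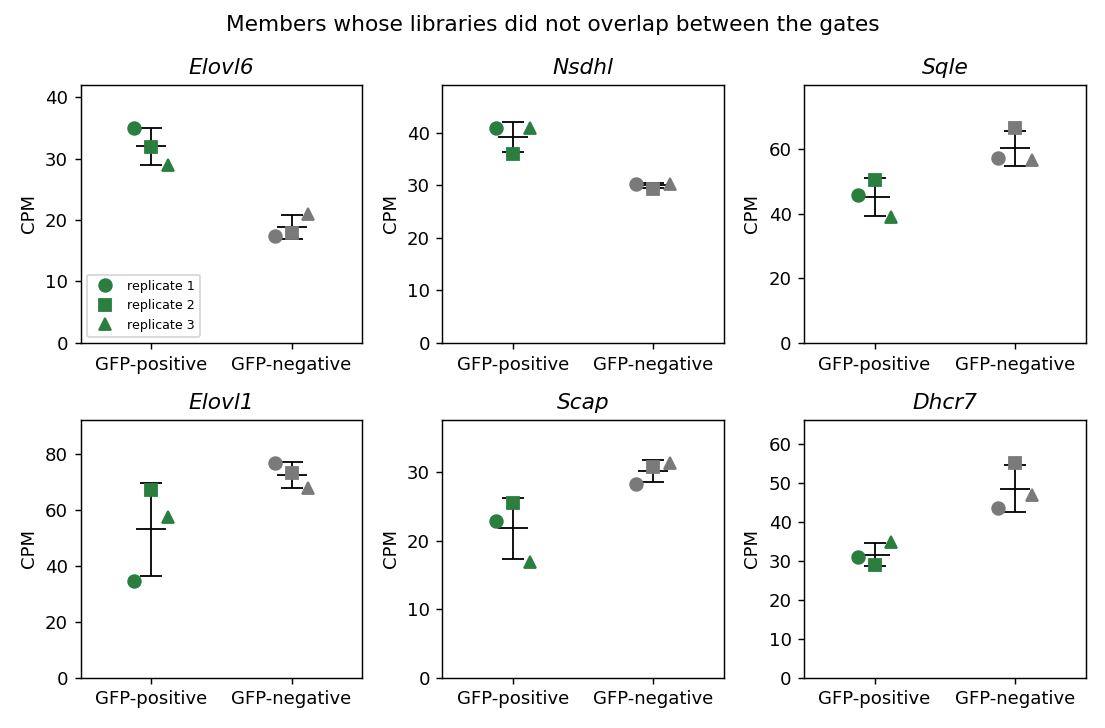
CPM of each library (y axis) in the GFP-positive and GFP-negative gates (x axis) for the 6 genes whose libraries did not overlap between the gates; horizontal and vertical bars are the mean and SD of 3 libraries and marker shapes are replicate numbers. Elovl6 and Nsdhl are higher and Sqle, Elovl1, Scap and Dhcr7 lower in the GFP-positive gate, and none passed the test over all genes.

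All 5 genes of SREBP control were negative, at a median log2 fold change of -0.12 (-0.06 without GFP-positive replicate 3, where Insig1 was positive). Srebf2, the SREBP of cholesterol genes, had 120.2, 139 and 96.2 CPM in GFP-positive libraries, against 145, 139 and 122 CPM in GFP-negative libraries. GFP-positive replicate 3 was the lowest of the 6 and the gates overlapped. The log2 fold change of Srebf2 was -0.19 ± 0.17 (SE), with an interval from -0.55 to 0.17, and it was -0.05 without that library. Srebf1, the SREBP of fatty acid genes, had 93.3, 67.4 and 82.2 CPM in GFP-positive libraries, against 75.8, 92.8 and 84.6 CPM in GFP-negative libraries. The highest and the lowest value of Srebf1 were both GFP-positive, and its interval ran from -0.45 to 0.33. Per length, the pair stood at 46.4 ± 10.6 TPM for Srebf2 and 40.2 ± 8.38 TPM for Srebf1 in GFP-positive libraries, and at 54.9 ± 5.55 TPM and 43.7 ± 5.28 TPM in GFP-negative ones (SD, n = 3 each). Srebf1 shares 109 exon bases with Rai1 on the other strand.

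Scap, the SREBP escort, had 22.9, 25.5 and 16.9 CPM in GFP-positive libraries, against 28.3, 30.7 and 31.4 CPM in GFP-negative libraries. Its libraries did not overlap, and its log2 fold change was -0.47 ± 0.27 (SE; edgeR adjusted p = 0.622), or -0.31 without GFP-positive replicate 3. A gene model of the other strand, with 17 counts over the 6 libraries, shares 985 of its exon bases. Insig1, which SREBPs themselves switch on, had 46.4, 40.5 and 35.6 CPM in GFP-positive libraries, against 39.7, 48.7 and 36.8 CPM in GFP-negative libraries. Insig2, its relative, had 52.0, 50.1 and 54.5 CPM in GFP-positive libraries, against 63.6, 51.2 and 55.3 CPM in GFP-negative libraries. Both overlapped between the gates. Their log2 fold changes were -0.03 ± 0.23 and -0.12 ± 0.20 (SE), with intervals from -0.52 to 0.46 for Insig1 and from -0.55 to 0.31 for Insig2. Insig2 varied 1.27-fold from the lowest to the highest of the 6 libraries.

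Among the 8 tested genes of fatty acid synthesis 4 were positive and 4 negative, with a median of 0.02. Elovl6 (chromosome 3, 129532355 to 129638495, plus strand), which elongates saturated fatty acids such as palmitate, had 35.0, 32.0 and 29.0 CPM in GFP-positive libraries, against 17.4, 17.96 and 21.1 CPM in GFP-negative libraries. Every GFP-positive library exceeded every GFP-negative one, and the log2 fold change was 0.76 ± 0.27 (SE), with an interval from 0.19 to 1.34. The unadjusted p was 0.0134 and edgeR's adjusted p 0.333, so it was not called. Without GFP-positive replicate 3 the log2 fold change was 0.84 ± 0.30 (edgeR adjusted p = 0.255). Elovl1, which elongates very long chains, had 34.5, 66.9 and 57.5 CPM in GFP-positive libraries, against 76.8, 73.0 and 67.5 CPM in GFP-negative libraries. GFP-positive replicate 2 came within 1 CPM of the lowest GFP-negative library, and the log2 fold change was -0.45 ± 0.24 (SE; edgeR adjusted p = 0.575). Elovl1 shares 53 exon bases with Cdc20, a cell division gene on the other strand.

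The enzymes that build the chain were low per length. Fasn, fatty acid synthase, had 12.04 ± 1.24 CPM in GFP-positive libraries, against 18.8 ± 6.33 CPM in the GFP-negative gate (SD, n = 3 each), or 3.05 TPM in the GFP-positive and 5.02 TPM in the GFP-negative gate. Acaca, acetyl-CoA carboxylase, had 7.79, 4.60 and 17.4 CPM in GFP-positive libraries, against 12.6, 13.9 and 20.2 CPM in GFP-negative libraries. GFP-positive replicate 3 alone of its gate lay inside the GFP-negative range. With it the log2 fold change of Acaca was -0.64 ± 0.49 (SE; edgeR adjusted p = 0.72), and without it -1.31 ± 0.48 (edgeR adjusted p = 0.274). This library held the myeloid, epithelial and stromal transcripts; their part in its Acaca count was not tested. Acaca rested on 20 to 121 counts per library, and reads shared with its pseudogene add to its uncertainty.

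Desaturases split into expressed and barely detected genes. Scd2, a stearoyl-CoA desaturase, had 13.3 to 23.2 CPM in GFP-positive libraries, against 16.7 to 22.9 CPM in GFP-negative libraries, with a log2 fold change of -0.02 ± 0.33 (SE). Scd1, its relative, had 0, 0 and 24 counts in GFP-positive libraries, against 9, 0 and 0 counts in GFP-negative replicates 1 to 3. Where no read was counted, the limit from counting error alone was 0.520 CPM for GFP-positive replicate 1, 0.690 CPM for replicate 2, and 0.682 and 0.658 CPM for GFP-negative replicates 2 and 3. The longest Scd2 transcript matched 623 bases of a Scd1 transcript at over 95% identity, so reads there can be shared. Fads1, a desaturase of polyunsaturated fatty acids, had 11.1 ± 3.97 CPM in GFP-positive cells against 8.25 ± 2.21 CPM in GFP-negative cells (SD, n = 3 each). Its neighbour Fads2 had 0, 0 and 58 counts in GFP-positive libraries, against 13, 8 and 0 counts in GFP-negative libraries, so that most of its reads came from GFP-positive replicate 3.

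The 4 tested genes of sterol handling had a median log2 fold change of -0.06, and 1 was positive. Soat1, which esterifies cholesterol for storage, had 59.7 ± 5.57 CPM in GFP-positive libraries, against 60.7 ± 4.69 CPM in the GFP-negative gate (SD, n = 3 each). Its log2 fold change was -0.02 ± 0.19 (SE), with an interval from -0.44 to 0.39. Abcg1, a sterol exporter, had 64.8, 55.9 and 81.6 CPM in GFP-positive libraries, against 67.6, 44.6 and 51.3 CPM in GFP-negative libraries. GFP-positive replicate 3 was the highest and the gates overlapped; its log2 fold change was 0.31 ± 0.23 (SE), and 0.15 without that library. Npc1, the late endosomal cholesterol carrier, had 8.58 ± 2.24 CPM in GFP-positive cells against 12.4 ± 3.19 CPM in GFP-negative cells, and Stard4, a cytosolic sterol carrier, 34.3 ± 8.48 CPM in GFP-positive cells against 36.6 ± 9.95 CPM in GFP-negative cells (SD, n = 3 each). Npc1 shares 511 exon bases with Rmc1 on the other strand, which had 1712 counts against 318 of Npc1 over the 6 libraries.

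Abca1, the other main exporter and a gene of macrophage cholesterol efflux, had 8, 4 and 175 counts in GFP-positive libraries, against 1, 17 and 2 counts in GFP-negative libraries. In CPM these were 1.39, 0.920 and 25.1 in the GFP-positive gate, against 0.194, 3.87 and 0.439 in the GFP-negative gate. Only GFP-positive replicate 3 was above 4 CPM, and Abca1 did not pass the filter. That library also had 132 CPM of the macrophage receptor gene Csf1r, against 0.581 to 4.32 CPM in the other 5. Whether myeloid, epithelial or stromal transcripts account for its Abca1, Fads2 and Scd1 counts was not tested. In bulk samples, fewer cells of a type and less RNA per cell cannot be told apart.

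An order of the libraries in some enzymes of sterol synthesis was noticed after the values were seen. For Mvk, Idi1, Sqle, Cyp51, Msmo1, Hsd17b7 and Sc5d, replicate 2 was the highest library of each gate. These are 7 of 16 tested genes of the mevalonate and sterol arms, or 43.8%, where 10.2% of all tested genes had that order. Msmo1 had 103 CPM in GFP-positive replicate 2 and 59.1 and 73.8 CPM in the other GFP-positive libraries. In the GFP-negative gate it had 106 CPM in replicate 2 and 50.7 and 79.1 CPM in the others. Hsd17b7 had 25.5 CPM in GFP-positive replicate 2, against 6.75 and 11.6 CPM in replicates 1 and 3, and 25.2 CPM in GFP-negative replicate 2, against 14.5 and 12.5 CPM in replicates 1 and 3. The spread within a gate was thus larger than the difference between the gates for both genes. Npc1 of sterol handling also had that order, while no gene of SREBP control and none of fatty acid synthesis did. Over the 33 tested genes of the set the count was 8, or 24.2%. The labels do not say that equal numbers mark a shared mouse or batch, and the order was not tested.

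**Figure D4:**
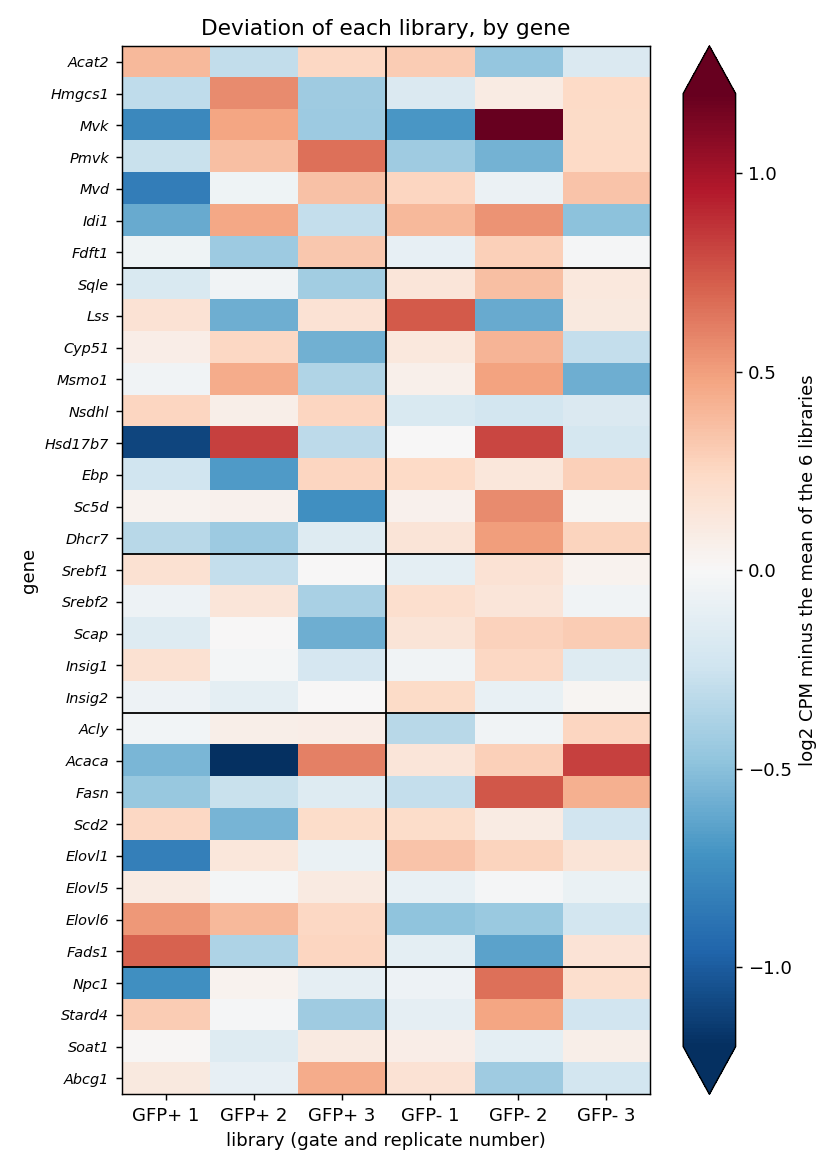
Log2 CPM of each tested gene minus its mean over the 6 libraries (colour; red higher, blue lower), by gene in role order (rows, lines between roles) and library (columns, GFP-positive left). Hsd17b7, Msmo1, Idi1 and Mvk are red in replicate 2 of both gates, and Elovl6 is red in all GFP-positive and blue in all GFP-negative libraries.

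Other genes of these pathways were taken from lists of 63 genes that did not include the set. Of 55 tested, 0 were called over all genes with all 6 libraries (edgeR), 27 were positive and 28 negative. The 7 other genes of SREBP control had a median log2 fold change of 0.16, with 4 positive, and of -0.20 without GFP-positive replicate 3, with 3 positive. Rnf139, a ubiquitin ligase of the endoplasmic reticulum, had 34.7 ± 5.46 CPM in GFP-positive cells against 47.0 ± 8.05 CPM in GFP-negative cells (SD, n = 3 each; edgeR adjusted p = 0.587), and shares 1140 exon bases with Tatdn1 on the other strand.

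Acss2, which makes acetyl-CoA from acetate, had an unadjusted p of 0.00722. It had 124, 123 and 90.9 CPM in GFP-positive libraries, against 85.9, 74.1 and 63.6 CPM in GFP-negative libraries. The gates did not overlap; the log2 fold change was 0.60 ± 0.19 (SE; edgeR adjusted p = 0.26), and 0.74 ± 0.19 without GFP-positive replicate 3 (edgeR adjusted p = 0.119). Exons of Acss2 overlap those of Gss and Ggt7 on the other strand. Among 9 tested genes of fatty acid synthesis outside the set, the median log2 fold change was -0.03, and Hsd17b12, a reductase of elongation, had the second smallest p, at 48.1 ± 8.02 CPM in GFP-positive cells against 64.6 ± 12.9 CPM in GFP-negative cells (SD, n = 3 each).

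The remaining lists held no gene with an unadjusted p below 0.05 with all 6 libraries, where 10.3% of all tested genes had such a p. Without GFP-positive replicate 3 they held 3, where 12.2% of all tested genes had such a p. Gramd1b and Stard3 were higher, with log2 fold changes of 0.62 and 0.65 without that library. Fabp5, a fatty acid carrier, was lower, at -0.59. These were 2 of 11 tested genes of LXR signalling and sterol transport and 1 of 7 of lipid uptake and storage. None of the 3 was called by edgeR. Of 5 other genes of sterol synthesis 3 were negative, and Lbr, a sterol reductase that is also a receptor of the nuclear envelope, had 189 ± 32.3 CPM in GFP-positive cells against 228 ± 37.2 CPM in GFP-negative cells (SD, n = 3 each). The thiolase Acat1 had 87.9 ± 13.2 CPM in GFP-positive cells against 100.3 ± 9.97 CPM in GFP-negative cells. Of 11 tested genes of LXR signalling and sterol transport 7 were positive, with a median of 0.18. Gramd1b, a carrier of plasma membrane cholesterol, had 53.6 ± 13.4 CPM in GFP-positive cells against 39.7 ± 4.69 CPM in GFP-negative cells, and the lysosomal lipase gene Lipa 52.7 ± 8.43 CPM in GFP-positive cells against 39.2 ± 9.32 CPM in GFP-negative cells.

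Fatty acid oxidation, the pathway opposite to synthesis, had 11 of 16 genes negative and a median of -0.11. The thiolase Acaa2 had 69.5 ± 6.48 CPM in GFP-positive cells against 89.7 ± 18.6 CPM in GFP-negative cells, and Cpt2, of the carnitine shuttle, 5.84 ± 2.93 CPM in GFP-positive cells against 12 ± 7.12 CPM in GFP-negative cells (SD, n = 3 each). Of 7 tested genes of lipid uptake and storage 5 were positive, with a median of 0.11, and without GFP-positive replicate 3 only 2 were, with a median of -0.48. Plin2, which coats lipid droplets, had 17.7, 26.2 and 114 CPM in GFP-positive libraries, against 20.4, 27.1 and 12.9 CPM in GFP-negative libraries. Its high value lay in the library with myeloid, epithelial and stromal transcripts, and its log2 fold change of 1.40 ± 0.81 (SE) became 0.13 ± 0.39 without it. The part of those transcripts in the Plin2 count was not tested. Pnpla2, a lipase of stored fat, had 67.3 ± 8.16 CPM in GFP-positive cells against 56.9 ± 10.5 CPM in GFP-negative cells (SD, n = 3 each).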

How the data were processed

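Bulk RNA-seq was measured in 6 libraries, 3 of each sort gate, with groups and replicate numbers from the sample titles. The authors deposited raw counts per gene and a TPM table. The submitters' processing notes list STAR 2.7.10b, fastp 0.23.3, deepTools 3.5.1 and SAMtools 1.17, and the build mm10. What counted the reads, and on which annotation, is not given in the sources used here. Per the labels' protocols, cDNA was primed with oligo-dT and random hexamers, amplified by PCR and tagged by a transposase, without strand or molecular identifiers, so limits from counts cover counting error only and amplification noise falls within the spread between libraries.

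From the counts, edgeR 4.0.16 (R 4.3.3) was run with TMM factors, its expression filter by group (minimum count 10), robust quasi-likelihood fits and no term beside the gate. The SE was derived from the log2 fold change and F. The 95% intervals came from the SE and the total degrees of freedom of the fit, residual plus prior. A count of 0 was given a limit of 3 counts. Coordinates and exon overlaps come from GENCODE M21 (mm10, 1-based), where Fdft1 matched without its version. Copies were sought with blastn 2.17.0. TPM were used for levels between genes.

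The genes and lists were chosen with earlier results of these data known. All 37 were accounted for; given in full were those with an unadjusted p below 0.05 or no overlap, the 3 highest and 3 lowest by mean TPM, and SREBP control, with others named for their role, and of the other lists the 2 genes with the smallest p, of which 1 is not reported here. The test was checked on counts simulated from edgeR's fitted dispersions. No library in that simulation was set apart like GFP-positive replicate 3, so it does not check the test under such a departure. Alternatives were RLE factors, library size alone, 2 other filters, DESeq2 1.42.0, limma-voom and limma (3.58.1) on log2(TPM + 1) or log2(TPM + 0.1), a replicate block, a threshold of 0.01 and leaving out each library.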

Additional observations from a re-analysis of the deposited data

How the results depend on the processing

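No gene of the set was called under any alternative run, and the lowest adjusted p was 0.232. From 1 to 5 had an unadjusted p below 0.05. The 5 came with no filter, where 1985 genes of all had such a p. The 1 came without GFP-negative replicate 2, where 822 had, or 781 on the genes of the full data. Of the 33 tested genes, 20 kept the sign of their log2 fold change in all 22 alternatives that refitted it. Elovl6, Dhcr7, Sqle, Scap, Elovl1 and Nsdhl were among them. The libraries of these 6 did not overlap between the gates, so leaving out a library could hardly reverse their sign. The other 13 had a sign that depended on the setting without being called. The medians ranged from -0.31 to 0.01 in the mevalonate arm, -0.46 to -0.18 in the sterol arm, -0.18 to -0.06 in SREBP control, -0.06 to 0.11 in fatty acid synthesis and -0.16 to 0.03 in sterol handling. That of the sterol arm was -0.46 with log2(TPM + 0.1), from -0.26; the cause was not tested.

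The count of calls over all genes, 12, depended on the processing. It was 19 with library size alone, 373 with no filter, 200 with DESeq2, 5 with limma-voom, 1 on log2(TPM + 1) with or without a filter, 0 on log2(TPM + 0.1) and 0 at a threshold of 0.01. At the zeros, 1156 and 1138 genes had an unadjusted p below 0.05. Leaving out each library gave 0 to 50, and the count also moved with the genes that then passed the filter. Without GFP-positive replicates 1, 2 and 3 it was 0, 0 and 42, and 0, 3 and 50 on the genes of the full data. Without GFP-negative replicates 1, 2 and 3 it was 1, 3 and 0, and 10, 5 and 11 on the genes of the full data. At the zeros among these, 1105, 1018 and 846 genes had an unadjusted p below 0.05, and 1077 for GFP-positive replicate 1 on the genes of the full data. Other causes were not tested. With a replicate block it was 81. Libraries of equal number deviated together weakly (r across genes, which are not independent, of 0.104, 0.0971 and 0.104 for numbers 1 to 3), each best with its own number, which is a hint from the data and not from the design. In the fit with the block the set again had 0 calls. Sc5d, Dhcr7 and Elovl6, of its 33 tested genes, had an unadjusted p below 0.05, where 1309 of all 11074 tested genes had. Depth limits the low genes most: Acaca rested on 20 to 121 counts per library and its SE was 0.49, against 0.13 for Elovl5.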
